A study of Rattus norvegicus with 6 samples.

Results

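The genes described here carry the parathyroid hormone (PTH) and vitamin D signals of bone. They were chosen by name: the PTH receptor Pth1r, its local ligand Pthlh, the G protein subunit Gnas, the vitamin D receptor Vdr, its partner Rxra, and the enzymes Cyp27b1 and Cyp24a1. All 7 were found among the 37203 gene rows of the count table. Of these, 4 (Pth1r, Gnas, Vdr and Rxra) had enough counts to be tested, Pthlh and Cyp27b1 had a few counts, and Cyp24a1 was listed at 0 throughout.

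PTH from the parathyroid gland and the related peptide made by Pthlh in local tissues bind the same receptor on osteoblasts and osteocytes. The receptor acts mainly through the stimulatory G protein whose alpha subunit Gnas encodes, which raises cyclic AMP. In the jaw the Pthlh peptide is also known for its part in tooth eruption, where dental follicle and epithelium produce it. Vitamin D is activated to calcitriol by the enzyme of Cyp27b1 and broken down by that of Cyp24a1. Calcitriol binds Vdr, which pairs with the retinoid X receptor Rxra on DNA, and Cyp24a1 is among the genes that Vdr induces most strongly.

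The data are RNA sequencing counts from rat (Rattus norvegicus) alveolar tissue, the bone that holds the teeth, in 6 libraries of total RNA. Corticision, a cut through the gum into cortical bone that is meant to speed orthodontic tooth movement, is what sets the groups apart, and teeth were moved in both. The titles name 3 libraries case (5, 6 and 9) and 3 control (5, 6 and 10). The source field, however, describes case as moved without corticision and control as moved with it, which is the reverse of the usual sense of those words. Groups are therefore called by title, all differences are case minus control, and no direction is tied to the surgery. Strain, age, days of movement and whether a library is 1 animal or a pool are not stated in the labels, so the tests measure the spread between libraries, which may be technical.

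Library totals ran from 10886303 to 14433740 counts. The osteoblast markers fixed for this work were all detected, with a summed level of 42958.5 to 84076.5 CPM (counts per 1000000 of the normalized library size). Those of osteocytes were detected as well. Of the 7 osteoclast markers, 6 had a row in the count table, and all 6 were detected. Both libraries numbered 5 stood apart in tissue content. Case 5 had 459.6 CPM and control 5 had 89.8 CPM of tooth-forming cell markers, against 0.640 to 7.79 CPM in the other 4 libraries. Control 5 alone had 3865 CPM of oral epithelium markers, against 46.7 to 102 CPM in the others. Skeletal muscle markers summed to 6.92 CPM in control 5, 78.7 CPM in case 5 and 257 to 943 CPM elsewhere. The part of these differences in the results that follow was not tested unless a value is given.

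Promoter sequences were at hand for 5 of the 7 genes, from RefSeq on assembly GRCr8. The 250 bases before a start site of each hormone's receptor are shown, because the comparisons turn on these genes and the receptors bind the hormones. Capitals in Pth1r mark the core of the cyclic AMP response element, TGACG, and capitals in Vdr mark the receptor core site GGTTCA read on the other strand (TGAACC).
Pth1r, chr8:119595572-119595821, minus strand: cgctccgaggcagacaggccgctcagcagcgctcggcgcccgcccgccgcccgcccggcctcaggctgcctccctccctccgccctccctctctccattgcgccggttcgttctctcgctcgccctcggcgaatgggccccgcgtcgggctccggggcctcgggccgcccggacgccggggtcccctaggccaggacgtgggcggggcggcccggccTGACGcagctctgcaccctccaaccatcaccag
Vdr, chr7:130916758-130917007, minus strand: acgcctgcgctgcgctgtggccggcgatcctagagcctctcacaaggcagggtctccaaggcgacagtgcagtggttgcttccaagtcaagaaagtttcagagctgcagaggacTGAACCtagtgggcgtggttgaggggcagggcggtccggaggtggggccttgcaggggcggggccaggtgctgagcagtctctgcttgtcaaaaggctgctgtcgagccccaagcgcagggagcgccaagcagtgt
In the Pth1r window a TGACG began 33 bases before the start, a match that 18.2% of 33469 rat promoter windows of this length hold on either strand. The longer form TGACGTCA, which contains it, was in none of the members' windows and in 1.59% of all. GGTTCA was found once in Vdr, 136 bases before the start on the opposite strand, and once in Cyp27b1, 41 bases before it; 9.77% of all windows hold it. The other core site, AGGTCA, which 14.1% of windows hold, and the spaced repeats GGTCANNNNGGTCA (0.0717%) and GTTCANNNNGTTCA (0.0837%) were in none of them. Gnas has 3 listed starts, and the Gnas and Rxra windows held none of these letters on either strand. The Pth1r window was 77.6% G or C and the Vdr window 63.6%. These are matches of letters only.

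The receptor for PTH, Pth1r, was well covered in every library, with 4873 to 7757 counts. It stood at 584 CPM in case 5, 516 in case 6 and 492 in case 9, and at 427 in control 5, 497 in control 6 and 472 in control 10. Case 5 was the highest library and control 5 the lowest, while case 9 and control 6 crossed by a narrow margin. The case mean was 531 ± 48.0 CPM and the control mean 465 ± 35.6 CPM (± is the SD over n = 3 libraries throughout). The log2 fold change was 0.19 (SE 0.16, 95% interval -0.19 to 0.57), and Pth1r did not pass edgeR's quasi-likelihood test (Benjamini-Hochberg adjusted p = 0.999). In bulk tissue, fewer cells of a type and less RNA per cell cannot be told apart, here or in what follows. Whether the groups were apart depended on the scaling. Scaled by library totals, upper quartiles or DESeq2 size factors, each case library lay above each control library, for library totals at 498 to 581 against 448 to 460 CPM. With both libraries numbered 5 left out the log2 fold change was 0.098.

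Gnas, whose product couples Pth1r to cyclic AMP, differed least between the groups. Its locus is imprinted and makes several transcripts that share exons, so the row adds them together. Levels were 701, 708 and 673 CPM in case 5, 6 and 9 and 602, 725 and 679.8 CPM for controls 5, 6 and 10. Control 5 was the lowest and control 6 the highest, and the case libraries lay between them. The means of 694 ± 18.5 and 669 ± 62.4 CPM gave a log2 fold change of 0.05 (SE 0.17, 95% interval -0.34 to 0.44; edgeR Benjamini-Hochberg adjusted p = 0.999). It turned to -0.015 without control 5. With library totals the groups lay apart, with the case libraries at 682 to 737 CPM and the controls at 632 to 671 CPM.

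**Figure D1:**
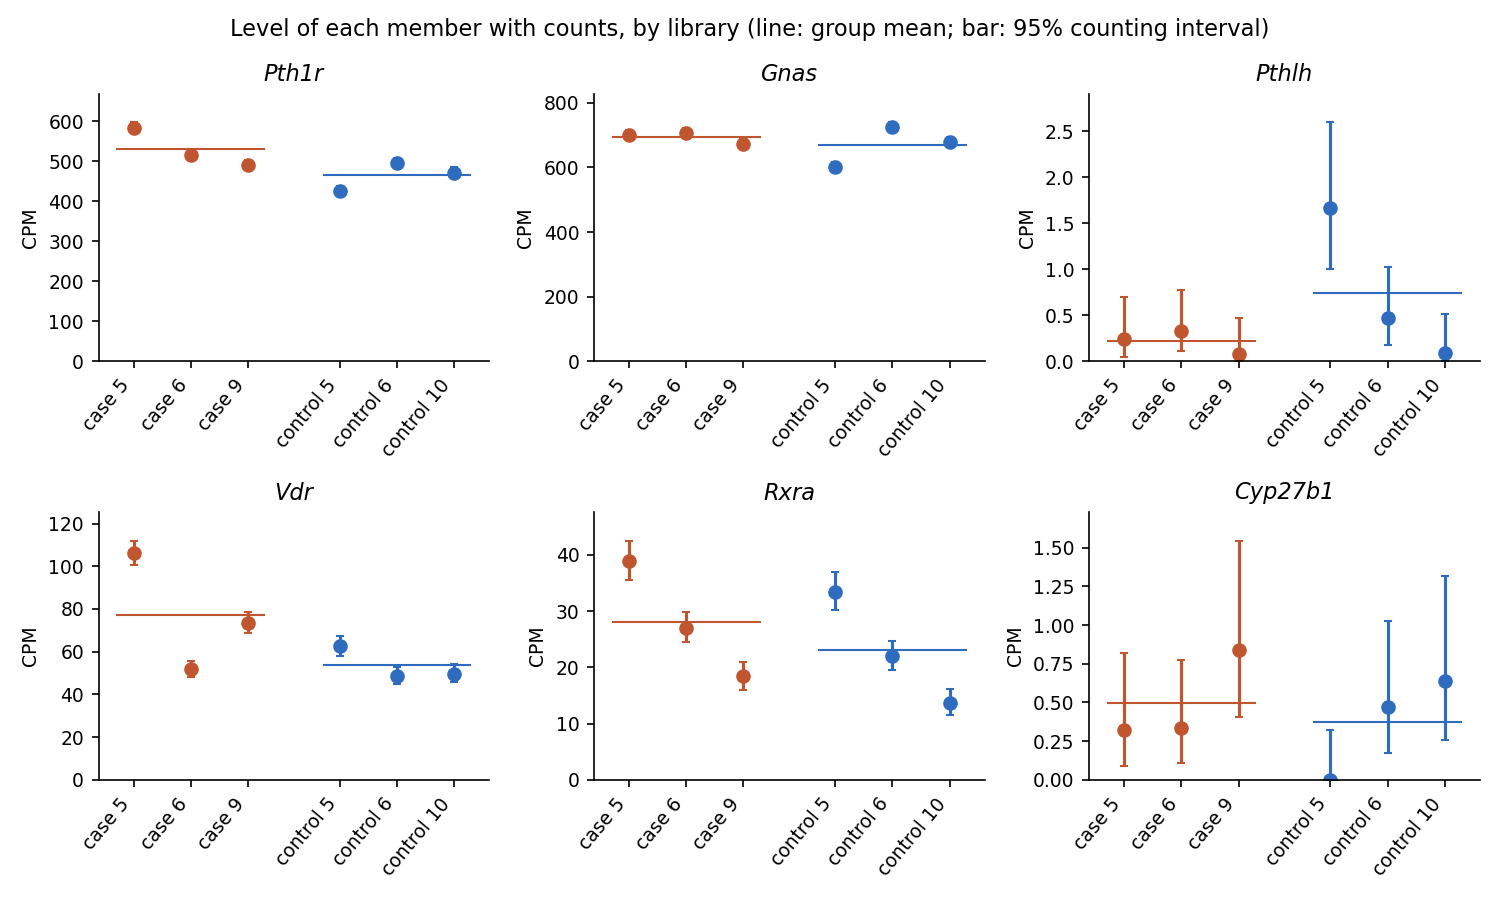
Level in CPM (vertical axis, from 0) of each gene with any counts in the 6 libraries; points are libraries, bars their exact 95% Poisson counting intervals and lines the group means. Pth1r and Gnas vary little between libraries, Rxra is highest in case 5 (38.9 CPM) and control 5 (33.4 CPM), and Pthlh and Cyp27b1 stay under 2 CPM.

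Pthlh, the local ligand, rested on 35 counts in all. It had 3, 5 and 1 counts for case 5, 6 and 9, against 19, 6 and 1 for controls 5, 6 and 10, so control 5 held more than the other 5 libraries together. That library was at 1.66 CPM (95% Poisson interval 1.0 to 2.60 CPM, for counting error only). The others ran from 0.0841 CPM in case 9 to 0.472 CPM in control 6, near the 0.2 to 0.274 CPM that a count of 0 allows. The groups overlapped, and Pthlh was too low to test. Control 5 is the library with 3865 CPM of oral epithelium markers: Krt14, a keratin of basal keratinocytes, had 27138 counts there and 20 to 306 in the others, and Dsp, a desmosome gene, had 2372 and 8 to 34. Of the 10 markers in that list, 10 had counts in all 6 libraries. An unadjusted p under 0.05 in edgeR was reached by 7, against 4.15% of all tested genes. All 10 log2 fold changes were negative, against 53.7% of all tested genes. These values rest on control 5. Groups were apart in 2 of the 10 markers, both lower in case. Among all tested genes 8.47% were apart, and 4.42% were apart and lower in case. The summed level was 59.9 to 102 CPM in the case libraries, 65.4 CPM in control 6 and 46.7 CPM in control 10. The log2 ratio of mean Pthlh levels, case over control, was -1.76 with all libraries and -0.37 without control 5. Control 5 also had 213 CPM of cartilage markers, against 37.7 to 104 CPM in the others. Its tooth-forming cell markers were at 89.8 CPM, below the 459.6 CPM of case 5. Keratinocytes are a known source of the Pthlh peptide, and the part of each of these tissues in the Pthlh ratio was not tested.

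**Figure D2:**
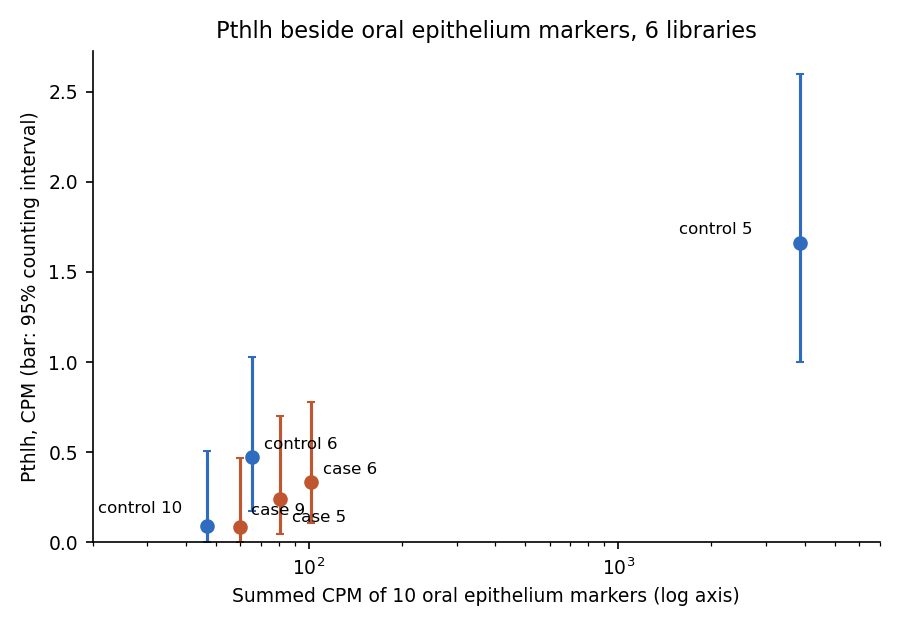
Pthlh level (vertical axis, CPM, bars are exact 95% Poisson intervals) against the summed level of 10 oral epithelium markers (horizontal log axis, CPM) in each library. Control 5 stands alone at 3865 CPM of markers and 1.66 CPM of Pthlh, and the other 5 libraries lie together at 46.7 to 102 CPM of markers and up to 0.472 CPM of Pthlh.

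Other ligands and receptors of this family were at the limit of detection. Pth, the hormone itself, had 2 counts in case 9, 3 in control 6, 2 in control 10 and 0 in the other libraries, while Pth2r had at most 5 counts and Pth2 had 0 in all 6. Gcm2, a transcription factor of the parathyroid, had 0 to 3 counts.

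Vdr, the nuclear receptor for calcitriol, had the largest difference of the 4 tested genes. Levels were 106 CPM in case 5, 51.7 in case 6 and 73.6 in case 9, and 62.5, 48.6 and 49.7 CPM for controls 5, 6 and 10. Case 5 and case 9 lay above all control libraries, but case 6 lay below control 5. The means were 77.1 ± 27.4 and 53.6 ± 7.71 CPM, a log2 fold change of 0.52 (SE 0.26, 95% interval -0.09 to 1.14). The edgeR quasi-likelihood test gave an unadjusted p of 0.0855 and a Benjamini-Hochberg adjusted p of 0.999, so Vdr did not pass, and 7.39% of tested genes had a smaller p. The value rested on single libraries, at 0.25 without case 5 and 0.74 without case 6. With both libraries numbered 5 left out it was 0.39.

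Rxra, the partner of Vdr, varied with the title number, and at the shared numbers 5 and 6 case lay above control. It was at 38.9, 27.1 and 18.4 CPM for case 5, 6 and 9, and at 33.4, 22.0 and 13.7 CPM for controls 5, 6 and 10. Both libraries numbered 5 were the highest and control 10 was the lowest. The group means of 28.1 ± 10.3 and 23.0 ± 9.91 CPM overlapped widely, with a log2 fold change of 0.29 (SE 0.38, 95% interval -0.59 to 1.17; edgeR Benjamini-Hochberg adjusted p = 0.999). Leaving out 1 library moved it from 0.012 (case 5) or 0.058 (control 10) to 0.52 (case 9) and 0.66 (control 5).

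**Figure D3:**
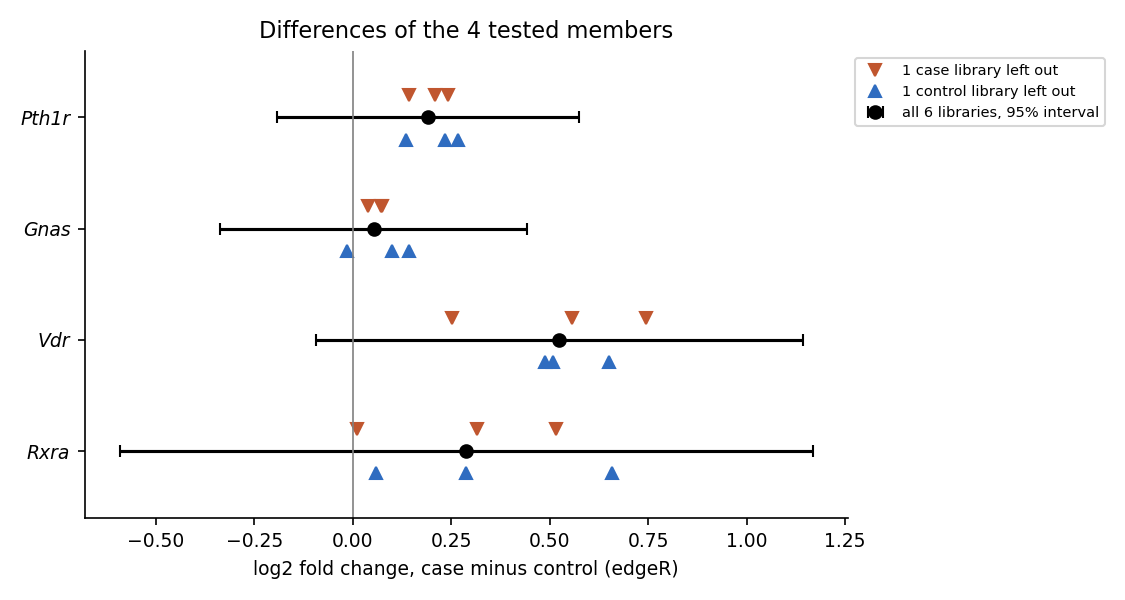
Log2 fold change, case minus control, of the 4 tested genes (horizontal axis) from the edgeR fit, with the 95% interval as a bar and triangles for fits that leave out 1 library. All 4 intervals include 0; Vdr stays between 0.25 and 0.74 when a library is left out, and Gnas crosses to -0.015 without control 5.

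The enzymes that make and remove calcitriol were barely detected. Cyp27b1 had 4, 5 and 10 counts for case 5, 6 and 9, against 0, 6 and 7 counts for controls 5, 6 and 10, or 0.498 ± 0.297 and 0.371 ± 0.332 CPM. The highest library was case 9 at 0.841 CPM (95% Poisson interval 0.403 to 1.55 CPM), while the 0 counts of control 5 allow up to 0.263 CPM. The direction was not stable, with a log2 ratio of mean levels of 0.42 with all libraries and -0.18 without case 9 and -0.16 without control 5. Without control 10 it was 1.08. Macrophages are known to express Cyp27b1, and their markers summed to 802 CPM in control 5, 849.5 CPM in case 5 and 1022 to 1201 CPM in the other 4 libraries. Cyp24a1 had 0 counts in each library, so that, by counting error, levels of up to 0.2 CPM (case 6) to 0.274 CPM (control 10) would go unseen. A listed 0 need not mean absence in this table: Hprt1, which every cell uses, had 0 counts in case 5, control 5 and control 6 and 118 in case 6.

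Of the 4 tested genes, 0 passed in edgeR after adjustment, where the background was 0% of 16066 tested genes (0 genes, smallest Benjamini-Hochberg adjusted p 0.879). At an unadjusted p under 0.05, edgeR gave 666 genes, or 4.15%, and none of the 4. That number was 1566 without case 5, 1215 without control 5, 367 without case 6, 401 without control 10 and 2294 with both libraries numbered 5 left out. Without case 6, Vdr had an unadjusted p of 0.0144 and a Benjamini-Hochberg adjusted p of 1.0 in edgeR. DESeq2 called 21 genes and limma-voom 0, none of them among the 7. All 4 log2 fold changes were above 0, as were 46.3% of all tested genes, with a median of 0.24 against -0.024 over all. With TMM scaling no member had groups apart, where 8.47% of tested genes did, 4.05% higher and 4.42% lower in case. Under the scalings that set Pth1r apart, 5.02% (DESeq2 size factors), 4.79% (upper quartiles) and 4.96% (library totals, which also set Gnas apart) of tested genes were apart and higher in case. The 95% intervals leave room for sizeable change in either direction in Rxra, from 0.663-fold to 2.25-fold, and a narrower range in Gnas, from 0.792-fold to 1.36-fold.

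Ratios of counts within a library do not depend on the scaling between libraries, and 5 were computed, all chosen after levels had been seen. The log2 ratio of Pth1r to Gnas was -0.26, -0.46 and -0.45 in case 5, 6 and 9 and -0.50, -0.55 and -0.53 for controls 5, 6 and 10. Each case library was above each control library, and the mean difference was 0.13. The log2 ratio of Vdr to Runx2, an osteoblast transcription factor, was 0.05, -0.40 and 0.08 in case 5, 6 and 9 and -0.59, -0.75 and -0.83 for controls 5, 6 and 10. These groups were apart as well, by 0.63 on average, and the difference stayed between 0.55 and 0.79 with any 1 library left out. For both ratios the two-sided exact permutation p was 0.1, the smallest that 3 libraries against 3 allow, and 0.25 after Benjamini-Hochberg adjustment over the 5. The Pth1r to Runx2 ratio (difference 0.35, exact permutation p = 0.2), the Pth1r to Col1a1 ratio (0.40, exact permutation p = 0.3) and the Vdr to Rxra ratio (0.16, exact permutation p = 0.7) overlapped. The difference of the last turned to -0.11 without case 9 and -0.043 without control 5. That of Pth1r to Gnas was 0.069 without case 5, and that of Pth1r to Col1a1 was 0.66 without case 5 and 0.26 without case 9.

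**Figure D4:**
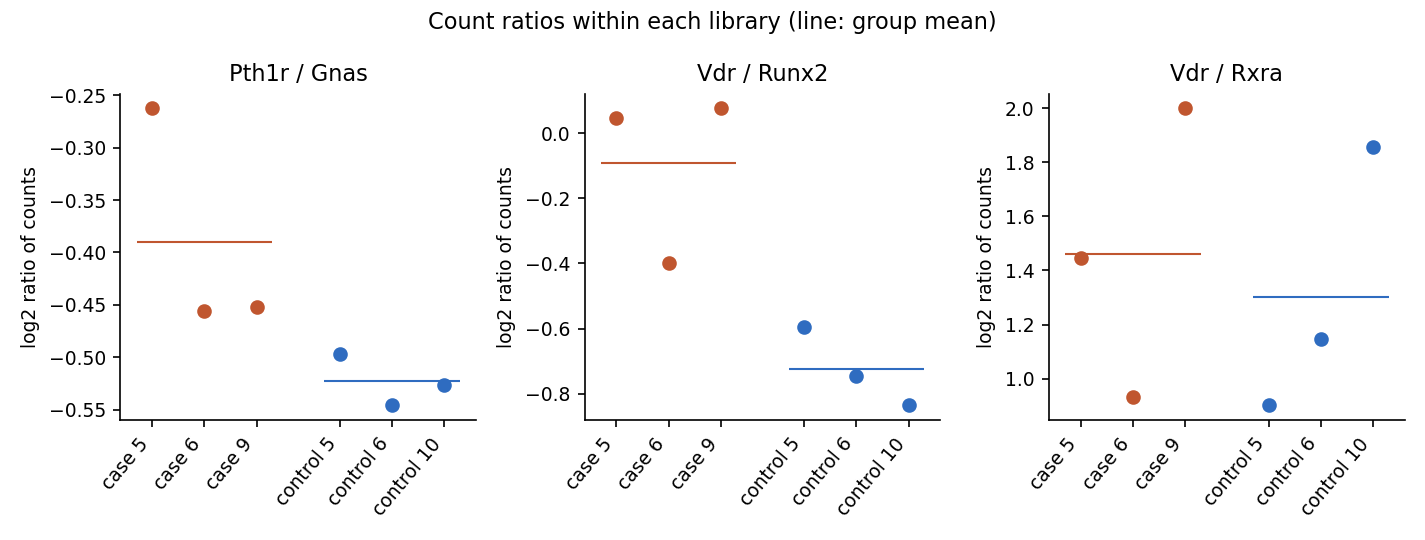
Log2 ratio of counts within each library (vertical axis) for Pth1r over Gnas, Vdr over Runx2 and Vdr over Rxra; points are libraries and lines group means. The case libraries lie above the control libraries in the first and second plots and overlap with them in the third. For the first and second the exact permutation p was 0.1 in each, the smallest possible, and 0.25 after Benjamini-Hochberg adjustment over 5 ratios. All 5 were chosen after levels had been seen. The ratios of Pth1r to Runx2 and to Col1a1, which overlapped, are not drawn. The vertical axes do not start at 0.

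Genes downstream of Gnas showed no shared direction. Of the 34 genes of the Gs and cyclic AMP list, 32 could be tested and 0 passed in edgeR in either direction. Of the log2 fold changes 15 were positive and 17 negative, where 46.3% of all tested genes were positive. The median was -0.015, with a range of -0.15 (without case 5) to 0.12 (without case 9). Groups were apart in 3 of the 32, a share near the 8.47% of all tested genes. Crtc2, a coactivator of the cyclic AMP response factor, had 73.1 ± 4.72 CPM in case libraries and 58.9 ± 5.90 CPM in controls. Crem, a cyclic AMP-responsive factor, was at 15.7 ± 1.27 and 22.5 ± 5.90 CPM, and Pde4b, an enzyme that degrades cyclic AMP, was at 8.18 ± 2.87 and 13.3 ± 1.08 CPM. Gnb2, a beta subunit, overlapped at 322 ± 48.3 and 259.6 ± 34.3 CPM. Sik2 and Sik3, kinases that the PTH signal restrains, had log2 fold changes of 0.08 and 0.12.

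The other arm of the receptor, through Gq, and the proteins that switch the receptor off were also without a call. All 14 genes of this list were tested and 0 passed in edgeR. Log2 fold changes were positive in 10, against 46.3% of all tested genes, and the median was 0.09. Adrbk1 (now named Grk2), a kinase that desensitizes receptors of this class, was at 231, 236.2 and 224 CPM for case 5, 6 and 9, and at 180.5, 214 and 149.7 CPM for controls 5, 6 and 10. It was the 1 gene of the 14 whose groups were apart, against 8.47% of all tested genes. Its log2 fold change was 0.34 (SE 0.17, edgeR Benjamini-Hochberg adjusted p = 0.999). Prkcd, a protein kinase C, was at 126 ± 10.8 and 105 ± 15.6 CPM, Grk5, another receptor kinase, at 26.4 ± 3.43 and 32.6 ± 3.22 CPM, and Rgs2, which limits Gq and Gs signals, at 24.4 ± 7.84 and 28.5 ± 1.48 CPM. All 3 overlapped. The arrestins Arrb1 and Arrb2, which bind the activated receptor, had log2 fold changes of 0.08 and 0.23.

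Genes that PTH is known to change in bone cells stood mostly lower in case. Of 22 listed, 21 were tested and 0 passed in edgeR; 18 had a negative log2 fold change, where 53.7% of all tested genes did, and the median was -0.52. Over all tested genes, groups were apart in 8.47%, and apart and lower in case in 4.42%. In this list groups were apart in 6 genes, all lower in case. They were Il6, a cytokine (0.273 ± 0.0914 against 2.98 ± 1.41 CPM), Nr4a3, an immediate early nuclear receptor (0.774 ± 0.138 against 3.68 ± 2.50 CPM), the chemokine Ccl2, the growth factor Csf1, the cytokine Lif, and Ptgs2, an enzyme of prostaglandin synthesis. DESeq2 called 1 gene of the lists, Il6, which edgeR did not (unadjusted p 0.000397, Benjamini-Hochberg adjusted p 0.999). Il6 had 4, 5 and 2 counts for case 5, 6 and 9, and 18, 38 and 48 for controls 5, 6 and 10. Its case levels were near the 0.2 to 0.274 CPM that a count of 0 allows. Sost, the osteocyte gene that PTH is known to lower, had 182.5 ± 24.6 CPM in case libraries and 130 ± 79.5 CPM in controls and overlapped. Control 5 (219 CPM) had the highest Sost level and control 10 (66.7 CPM) the lowest. Hdac5, which holds back the Sost enhancer factor Mef2c, was at 150.4 ± 9.04 and 129 ± 13.3 CPM. Tnfsf11, the osteoclast factor that PTH raises, was listed at 0 in all 6 libraries. The median of the list was -0.23 without control 5, -0.33 without control 10 and -0.76 without control 6. The list holds both genes that PTH raises, such as Tnfsf11, and genes that it lowers, such as Sost. Its sign count and median therefore do not give the direction of a PTH response. The list was drawn up with earlier results of these samples known, so its direction is not independent evidence.

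Other genes supply the substrate of Cyp27b1 or serve its class of enzyme. Of 9 listed, 7 were tested, 0 passed in edgeR, 3 were positive and 4 negative, where 46.3% of all tested genes were positive. Groups were apart in 2 of the 7, both higher in case. Among all tested genes 8.47% were apart, and 4.05% were apart and higher in case. Cyp2r1, the liver-type enzyme that makes the circulating form, had 14, 21 and 20 counts for case 5, 6 and 9, against 5, 5 and 10 for controls 5, 6 and 10. Its groups were apart at 1.40 ± 0.281 and 0.582 ± 0.289 CPM, with a log2 fold change of 1.26 (SE 0.49; edgeR Benjamini-Hochberg adjusted p = 0.999). Por, which passes electrons to such enzymes of the endoplasmic reticulum, was also apart, at 98.6 ± 16.2 and 78.4 ± 2.46 CPM. Cubn, an uptake receptor, at 1.25 ± 0.523 and 1.80 ± 0.561 CPM, and Fdxr, which feeds the mitochondrial enzymes, at 11.4 ± 1.28 and 12.5 ± 1.99 CPM, overlapped. Gc, the carrier protein of blood, had 1 to 9 counts. The list's median of -0.12 turned positive without case 5 (0.12), control 5 (0.14), control 6 (0.18) or control 10 (0.070).

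The coregulators that Vdr and Rxra recruit followed the libraries numbered 5. In 10 of 13 coregulator and partner genes both libraries numbered 5 lay above the other 4, against 20% of all tested genes. The pattern was not confined to this list. It was in 13 of 32 genes (40.6%) of the Gs list and 5 of 14 (35.7%) of the Gq list. The other pathway lists with tested genes had it in 10% to 21.4%. Ncoa2, a coactivator, reached 51.1 CPM in case 5 and 38.8 CPM in control 5, with 15.1 to 21.8 CPM in the others. Ep300, an acetyltransferase, was at 117 and 81.1 CPM in these and at 49.1 to 65.3 CPM in the others. Rxra itself shares this pattern, whereas Vdr in case 9 exceeded control 5. These libraries are also those with tooth-forming cell markers and the most cartilage markers, which summed to 104 CPM in case 5, 213 CPM in control 5 and 37.7 to 60.7 CPM in the others. The part of these tissues in the pattern was not tested. Between the groups 0 of 13 passed in edgeR, 10 were positive, against 46.3% of all tested genes, and the median was 0.20. Rxrb, the sister gene of Rxra, had 75.6 ± 9.29 CPM in case libraries and 64.7 ± 10.3 CPM in controls. Baz1b had a log2 fold change of -0.08 and Med1, which links Vdr to the transcription machinery, of -0.11. Snw1 was the 1 gene of the 13 whose groups were apart, where 8.47% of all tested genes were. It had 42.0 to 47.2 CPM in the case libraries and 37.0 to 41.8 CPM in the controls. The median was 0.027 without case 5 and 0.37 without control 5.

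Of 11 other nuclear receptors that pair with retinoid X receptors, 10 were tested and 0 passed in edgeR. Log2 fold changes were positive in 8, against 46.3% of all tested genes, with a median of 0.067. Pparg, the receptor that drives fat cell formation, had 14.9 ± 5.63 CPM in case libraries and 10.1 ± 1.17 CPM in controls. It was the 1 gene of the 10 whose groups were apart, against 8.47% of all tested genes. Nr1h2, an oxysterol receptor, was at 138 ± 24.4 and 118 ± 13.7 CPM, Rarg, a retinoic acid receptor, at 92.4 ± 11.6 and 96.8 ± 1.40 CPM, and Thrb, a thyroid hormone receptor, at 13.0 ± 4.38 and 14.7 ± 5.07 CPM. These 3 overlapped. The median was 0.012 without case 6, 0.15 without case 5 and 0.19 without control 5.

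No gene known to respond to calcitriol passed the test. Of 19 listed, 14 were tested, 0 passed in edgeR, 10 were negative (53.7% of all tested genes were), and the median was -0.23. Spp1, which encodes the bone matrix protein osteopontin, was at 3663, 3762 and 3509 CPM for case 5, 6 and 9, and at 5021, 4473 and 5450 CPM for controls 5, 6 and 10. It was the only tested gene of this list with groups apart, where 8.47% of all tested genes were. Its log2 fold change was -0.45 (SE 0.23, edgeR Benjamini-Hochberg adjusted p = 0.999). Enpp1, which makes the mineralization inhibitor pyrophosphate, was at 89.3 ± 15.0 and 111 ± 7.31 CPM. Lrp5, a Wnt coreceptor, was at 128 ± 49.4 and 102 ± 11.5 CPM, and Txnip at 612 ± 232 and 498 ± 140 CPM; these and Enpp1 overlapped. The median was -0.38 with both libraries numbered 5 left out and -0.14 without control 6.

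The calcium channel Trpv6 had 4 counts in control 6 and 0 elsewhere, and S100g, a small calcium-binding protein gene, had 1 count in control 6. Atp2b1, the plasma membrane calcium pump of the same list, was well covered, at 61.6 CPM in the case mean and 69.8 CPM in the control mean. Calb1, which encodes the calcium buffer calbindin and is known in enamel-forming cells, had 42 counts in case 5, 5 in control 5 and 0 in the other 4 libraries. Amelx, the enamel matrix gene, had 2772 counts in case 5, 43 in control 6 and 1 to 7 elsewhere. Calb1 was seen in the pair of libraries with the highest summed tooth-forming cell markers, but it did not follow Amelx throughout. Control 6 had 43 counts of Amelx and 0 of Calb1, while control 5 had at most 7 of Amelx and 5 of Calb1. Calb1, Trpv6, S100g, Atp2b1 and Amelx were named after their values were seen.

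In the calcium sensing, calcitonin and stanniocalcin list 9 of 11 genes were tested and 0 passed in edgeR. Log2 fold changes were positive in 5, against 46.3% of all tested genes, and the median was 0.054. Ramp2, a partner of the calcitonin receptor-like receptor, was at 33.6, 39.6 and 41.0 CPM for case 5, 6 and 9, and at 47.6, 61.2 and 56.0 CPM for controls 5, 6 and 10. It was the 1 gene of the 9 whose groups were apart, against 8.47% of all tested genes. Its log2 fold change was -0.53 (SE 0.16, edgeR Benjamini-Hochberg adjusted p = 0.999). Calcrl, the receptor it pairs with, was at 16.9 ± 7.30 and 23.1 ± 1.65 CPM and overlapped. Both are known in endothelium, whose 4 markers also had negative log2 fold changes, 4 of 4, against 53.7% of all tested genes. These markers summed to 191 to 253 CPM in case and 248 to 297 CPM in control, and their part was not tested. Stc2, at 4.18 ± 3.13 and 2.58 ± 0.369 CPM, and Ramp3, at 19.7 ± 6.14 and 15.9 ± 8.90 CPM, overlapped. The median was -0.14 without case 6 or without control 5, 0.15 without control 6 and -0.11 with both libraries numbered 5 left out. Casr, the calcium receptor, had 0 to 9 counts.

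**Figure D5:**
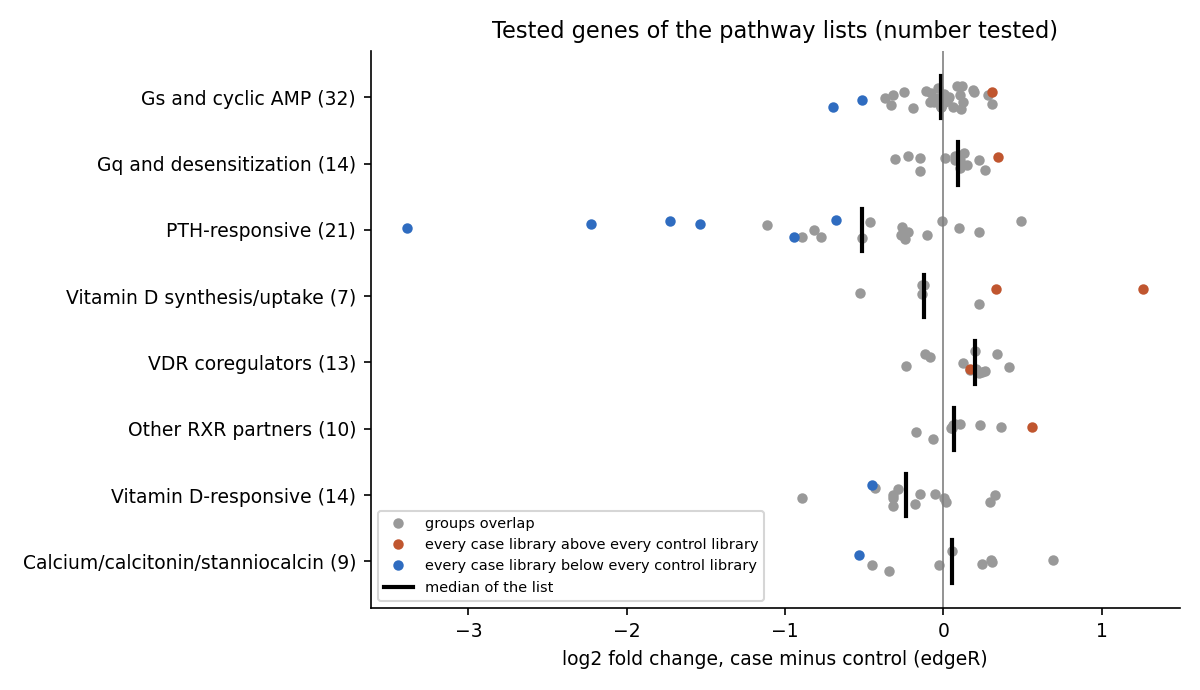
Log2 fold change, case minus control (horizontal axis), of each tested gene in 8 pathway lists, with the number tested in parentheses; bars are list medians and colours mark genes whose groups do not overlap. The PTH-responsive list has 6 such genes, all lower in case, with Il6 at -3.38 on 2 to 5 counts in each case library. The other lists have 1 to 3 each. Among all tested genes the groups of 8.47% do not overlap. A gene on 2 lists is drawn in both.

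Genes with a pattern most like each tested member over the 6 libraries were found by Pearson correlation of log2 CPM among 7173 genes. They were Smc1a (0.99), Tmem164 (0.98) and Gnb1 (0.96) for Pth1r, while Ubac2 (0.97) was among those for Gnas. Those of Vdr were Sec24b (0.99), Nrd1 (0.99) and Wfs1 (0.97), and those of Rxra were Trappc10, Tet3 and Rapgef6 (0.99 each). With 6 libraries such values are common: the third best match of a gene among the same candidates had a median correlation of 0.98. Of these genes Gnb1, a G protein beta subunit, is the only 1 on the lists above. Among the members, the correlation was 0.74 for Pth1r and Gnas, 0.58 for Vdr and Rxra, 0.57 for Pth1r and Vdr, 0.32 for Pth1r and Rxra, -0.09 for Gnas and Vdr and -0.19 for Gnas and Rxra, over the same 6 libraries, whose tissue content differed as described.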

How the data were processed

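Alveolar tissue RNA, extracted by TRIzol, gave 6 single-end libraries from the Ion Total RNA-Seq Kit v2.0, per the labels' protocols. The authors deposited whole-number counts per gene symbol; which aligner, counting program, genome build and strand setting made them is not given in the sources used here. Hence reads of overlapping or antisense genes cannot be told apart. Columns were matched to libraries by title, and 0 columns were left unused. Genes were filtered with filterByExpr, scaled with TMM and tested by group in edgeR 4.0.16 (quasi-likelihood F test, R 4.3.3), with a Benjamini-Hochberg threshold of 0.05 over 16066 genes. SE and 95% intervals of log2 fold changes were derived from the F statistic. CPM is counts per 1000000 of the TMM-scaled library size, and log2 CPM for correlations a prior count of 2. The limit set by 0 counts was taken as 3 counts (0.2 to 0.274 CPM); it and the Poisson intervals cover counting error only. The fit was also run on counts simulated from its own estimates, with changes added to some genes. That simulation held no libraries of differing tissue content, so it does not show how the test behaves here.

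The 7 members and the 9 gene lists were chosen with earlier results of these data known. Of each list, up to 2 tested genes with the smallest p in each direction are named, beside genes listed at 0; others were named after their values were seen, and some genes that the rules name are not reported here. Of 133 other list genes 118 were tested, and 1 was matched through an older symbol, as was 1 marker. Similar genes needed a mean of 20 CPM, and names starting with LOC or RGD were left out. Alternatives were other scalings and filters, DESeq2 1.42.0, limma-voom (limma 3.58.1), the title number as a block, and leaving out libraries; the ratios and their left-out libraries were added after seeing the data. Gene names and promoters are from RefSeq (GRCr8). Figures were drawn with matplotlib 3.10.9.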

Additional observations from a re-analysis of the deposited data

How the results depend on the processing

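The count of genes called by edgeR was 0 in the main comparison and 0 under the other scalings, both filters, the replicate block and both libraries numbered 5 left out; it was 0 to 2 with 1 library left out (2 without control 5) and 21 with DESeq2. Pth1r, Vdr and Rxra stayed above 0 in all 15 alternatives, at 0.098 to 0.27, 0.25 to 0.74 and 0.012 to 0.66, and the smallest adjusted p among them was 0.42. Gnas ran from -0.015 (without control 5) to 0.14 (without control 6). With both libraries numbered 5 left out the list medians were -0.33 (PTH-responsive), -0.38 (vitamin D-responsive), 0.17 (other RXR partners) and 0.18 (vitamin D supply). With 1 library left out they ran from -0.76 to -0.23 (PTH-responsive), -0.0077 to 0.14 (Gq arm), 0.012 to 0.19 (RXR partners) and -0.085 to 0.18 (vitamin D supply). The RXR partner median was 0.12 with library totals and 0.020 with the replicate block. The log2 Vdr to Rxra ratio ran from -0.11 to 0.44 with 1 library left out and was -0.037 without both libraries numbered 5. Pthlh was at -0.44 without both. The cause of these shifts was not tested.

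Only the numbers 5 and 6 occur in both groups, and no label ties them to an animal or a day. Deviations from the group means correlated at 0.38 for the libraries numbered 5 and 0.14 for those numbered 6, but also at 0.28 for case 9 and control 6 and 0.14 for case 6 and control 10. With the number as a block the log2 fold changes were 0.25 (Pth1r), 0.09 (Gnas), 0.43 (Vdr) and 0.26 (Rxra), with 0 calls. Case 9 and control 10 each fill a block alone in that fit. Its group differences therefore rest only on the libraries numbered 5 and 6. In the list of other PTH ligands and receptors 0 genes were tested in the main comparison, so its median was not computed under the alternatives. Cyp24a1, at 0 counts, gave no value under any setting. Few counts limit what can be said of Pthlh (at most 19 in a library), Cyp27b1 (at most 10) and Cyp24a1 (0).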
